A study of Mus musculus with 9 samples.

Results

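The cytoplasmic ribosomal protein genes were followed in RNA-seq of primary mouse microglia treated with control siRNA, Chd8 siRNA, or Tsc2 siRNA. Members were the protein-coding genes whose symbol starts with Rpl or Rps and a digit, with Rplp0, Rplp1, Rplp2, and Rpsa, that had at least 10 counts in at least 3 libraries. S6 kinase genes (Rps6k), genes named as pseudogenes (-ps), and mitochondrial ribosomal protein genes were left out. Of 380 symbols with these beginnings, 84 were members, out of 54119 genes in the table and 16273 genes tested. Another 278 symbols were not protein-coding, 10 were S6 kinases, and 6 were protein-coding but named -ps. The remaining 2, Rpl3l and Rpl10l, were paralogs below the count limit. The 84 members were 43 large-subunit genes, 3 genes of the P stalk, 31 small-subunit genes, 6 paralogs or like genes, and Rps19bp1, which encodes a protein that binds Rps19 and is not itself a ribosomal protein. The first 77 are called core members here.

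Ribosomal proteins assemble with ribosomal RNA into the large and small subunits that translate mRNA. Their mRNAs begin with a C followed by a run of pyrimidines, the terminal oligopyrimidine (TOP) sequence, through which mTORC1 controls how much of each mRNA is translated, in part by way of the binding protein Larp1. Tsc2 forms the complex that holds mTORC1 in check, and Chd8 is a chromatin remodeler. RNA-seq measures the level of these mRNAs and not their translation.

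Microglia are the resident immune cells of the brain, and a small interfering RNA (siRNA) lowers the mRNA that it matches. All 9 libraries came from primary microglia of the C57BL/6J strain, cultured from embryonic brain according to the methods, with 3 libraries for each siRNA and the replicate numbers 1, 2, and 3 in each group. The methods give 3 days of siRNA treatment before RNA isolation, and the study's text places these libraries after lipopolysaccharide stimulation of the microglia, in all groups alike. The sample descriptions do not name the stimulation. The labels name a stranded SMARTer kit and the methods an Illumina total RNA preparation. According to the methods, biological replicates were cultures from different mouse brains. No source used here says whether libraries of different siRNAs with the same number shared a culture.

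Total counts per library ranged from 16913448 to 33213801, and 3 counts, taken as the detection floor, corresponded to 0.0903 to 0.177 CPM (counts scaled to a common library total). This floor covers counting error only. Of 18 microglial markers, 16 exceeded 3 counts in every library, whereas Tmem119 reached no more than 1.12 CPM and Siglech no more than 0.538 CPM. Summed astrocyte markers, of which 9 of 10 exceeded 3 counts in some library, ranged from 15.9 to 120.1 CPM in control siRNA, from 14.4 to 59.1 in Chd8 siRNA, and from 14.2 to 60.3 in Tsc2 siRNA. Summed fibroblast and mural markers, with 8 of 8 detected in some library, ranged from 13.8 to 149, from 12.98 to 114, and from 11.6 to 99.1 CPM. Summed endothelial markers ranged from 185 to 247, from 147 to 175, and from 160.5 to 221 CPM, and Flt1 and Kdr, at 90.1 to 196 and 34.05 to 49.7 CPM, exceeded 3 counts in every library, whereas Cldn5 and Tek stayed at or under 3 counts in all 9. Summed border macrophage markers ranged from 72.7 to 94.5, from 65.4 to 88.7, and from 62.3 to 93.4 CPM, with Mrc1 at 52.9 to 88.5 CPM and Lyve1 at 0 throughout. Summed neuron markers, of which 7 of 8 exceeded 3 counts in some library, ranged from 5.07 to 21.2, from 3.74 to 13.7, and from 4.27 to 6.55 CPM. Summed oligodendrocyte lineage markers, with 10 of 10 detected in some library, ranged from 22.4 to 31.1, from 22.4 to 31.2, and from 14.5 to 29.1 CPM. The astrocyte marker Gjb6 and the neuron marker Rbfox3 stayed at or under 3 counts in all 9 libraries. Astrocyte sums and fibroblast and mural sums were highest in replicate 3 of each siRNA, and the part of these markers in the results below was not tested.

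The targeted genes were examined first. The Chd8 level, in CPM scaled by TMM factors, was 117.9, 97.4, and 93.6 in controls 1 to 3, 86.8, 44.5, and 38.3 with Chd8 siRNA, and 118.5, 89.8, and 101 with Tsc2 siRNA. All Chd8 siRNA libraries were below all others, with library 1 the least reduced. The log2 fold change against control siRNA was −0.86 ± 0.28 (SE, n = 3 per group; edgeR quasi-likelihood test, adjusted p = 1.00), and with the replicate number as a block it was −0.93 (edgeR, adjusted p = 0.0078). The Tsc2 level was 40.8, 39.9, and 38.9 CPM in control siRNA, 38.6, 38.6, and 40.1 with Chd8 siRNA, and 24.6, 30.6, and 36.5 with Tsc2 siRNA. All Tsc2 siRNA libraries were below all others, and library 3 was close to the controls. The log2 fold change was −0.38 ± 0.15 (edgeR, adjusted p = 1.00), and −0.39 with the block (edgeR, adjusted p = 0.219), so Tsc2 did not pass the test in either fit. For both genes the exact permutation test on log2(CPM + 0.5) gave p = 0.1, the smallest value that 3 libraries against 3 allow (two-sided).

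The start sites of the members carry the TOP letters in part of the annotation. RefSeq starts (GRCm38.p6) were found for 64 of the 84 members, and 14 of these, or 21.9%, had C followed by at least 4 C or T bases exactly at an annotated start, on the gene's own strand. Among all protein-coding genes with a RefSeq start, 447 of 16463 (2.72%) had these letters. The window around the start was shown for Rps6, Rps27, Rpl35, Rpl15, and Rps10 as members with the letters, and for Rps4x and Rpsa because the comparisons below turn on them. Each line gives 15 bases before and 15 bases from the annotated start, 5′ to 3′, with the C and the pyrimidines that follow it at the start in capitals.
Rps6, chr4:86857353-86857382, minus strand: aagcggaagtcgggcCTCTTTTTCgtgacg
Rps27, chr3:90213634-90213663, minus strand: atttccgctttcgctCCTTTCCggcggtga
Rpl35, chr2:39005117-39005146, minus strand: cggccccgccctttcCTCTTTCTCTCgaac
Rpl15, chr14:18270972-18271001, minus strand: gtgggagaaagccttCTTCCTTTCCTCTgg
Rps10, chr17:27635230-27635259, minus strand: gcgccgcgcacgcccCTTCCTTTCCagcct
Rps4x, chrX:102189377-102189406, minus strand: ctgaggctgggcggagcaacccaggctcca
Rpsa, chr9:120127751-120127780, plus strand: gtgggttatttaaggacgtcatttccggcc

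A start without the letters says only that they are not at that annotated base. When the same letters, C and 4 pyrimidines, were sought anywhere from 5 bases before to 10 bases from the annotated start, they were found in 30 of 64 members (46.9%) and in 21.8% of protein-coding genes. At the 5′ end of each gene's most counted protein-coding GENCODE transcript, 8 of 84 members (9.52%) and 305 of 12744 protein-coding genes tested (2.39%) had the letters. The 14 members with the letters at a RefSeq start had a median log2 fold change in Tsc2 siRNA against control siRNA of 0.15, and the 50 matched members without them one of 0.13.

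Members differed widely in level. Per length, in TPM (counts divided by transcript length and scaled to a common total), the highest core member in control siRNA was Rplp1, a P stalk protein that helps recruit elongation factors, at 306 ± 40.3 TPM (SD, n = 3). Rpl26, a large-subunit protein, was at 284 ± 39.8 TPM, and Rps24, a small-subunit protein needed for maturation of ribosomal RNA, at 212 ± 15.2 TPM. Rplp1 and Rpl26 differed by less than their SDs. The median core member was at 80.4 TPM, and 26 of 77 exceeded 100 TPM. The lowest core members were Rpl28 at 26.0 ± 0.80, Rpl10a at 22.0 ± 4.0, Rpl5 at 9.71 ± 1.9, and Rpl12 at 2.58 ± 0.38 TPM. Rpl5 is part of the 5S ribonucleoprotein, and Rpl12 sits at the base of the P stalk. The paralogs were low as well, with Rpl36al at 25.8, Rps27l at 9.21, Rpl7l1 at 8.47, Rpl22l1 at 5.83, Rps27rt at 1.10, and Rpl39l at 0.14 TPM in control siRNA. Rps19bp1 was at 10.2 TPM.

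These 4 lowest core members shared sequence with processed pseudogenes, which are intronless copies of the mRNA elsewhere in the genome. A pseudogene was matched to a member if its transcript had 95% identity or more to a coding transcript of that member. The match had to cover at least 80% of the pseudogene transcript and 100 bases. There were 607 such pseudogenes, 291 of them with any count, and the top 4 held 72.4% of the pseudogene counts. Pseudogenes held 7.44% of the joint counts of members and pseudogenes. The share was over 50% for 4 members, over 10% for 12, and under 1% for 63. Gm10275 on chr10 (29698746 to 29699380) was identical to Rpl12 over 634 bases, and pseudogenes held 94.7% of the joint counts of Rpl12. Gm15500 on chr7 (114705217 to 114706235) was identical to Rpl5 over 1018 bases, and pseudogenes held 91.4% of the joint counts of Rpl5. For Rps12 the share was 60.4%, mostly in Rps12-ps3, and for Rps23 it was 52.6%, mostly in Rps23-ps1. It was 35.8% for Rpl27a, 31.3% for Rpl31, 31.2% for Rpl10a, 29.8% for Rpl28, and 25.5% for Rpl27. The counts of these genes and their copies are therefore uncertain, because reads from an identical stretch cannot be told apart. The first 60 bases of the coding sequence, from the start codon in capitals, illustrate this for Rpl12 and Rpl5. Gm10275 and Gm15500 hold the same 60 bases.
Rpl12 and Gm10275: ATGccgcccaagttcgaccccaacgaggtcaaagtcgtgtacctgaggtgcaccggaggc
Rpl5 and Gm15500: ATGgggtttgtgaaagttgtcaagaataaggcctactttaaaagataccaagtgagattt

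**Figure D1:**
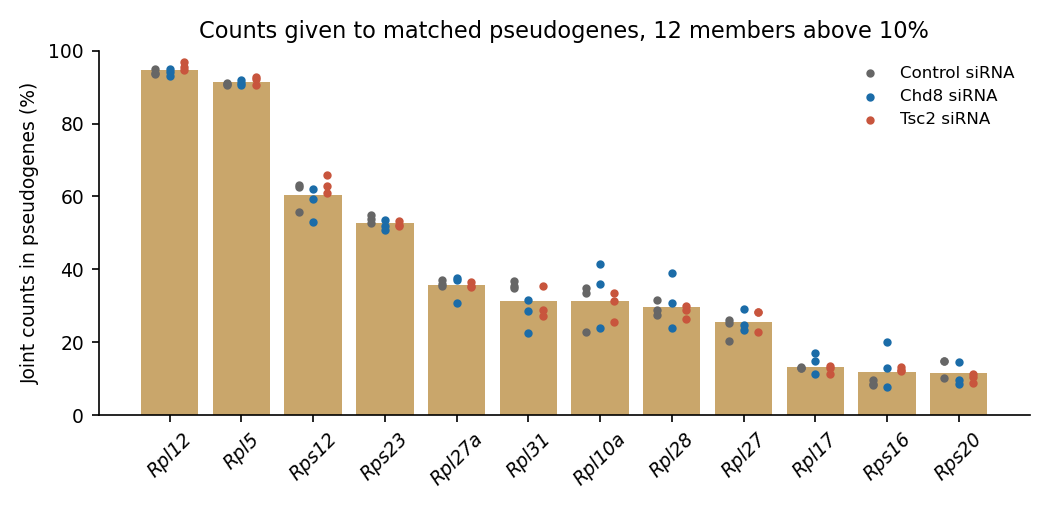
Share of the joint counts of a member and its matched pseudogenes that was given to the pseudogenes (y axis, %), for the 12 members above 10% (x axis). Bars pool the 9 libraries and points are single libraries by siRNA. Rpl12 and Rpl5 stand at 94.7% and 91.4%, and their single libraries lie between 93.0% and 96.8% and between 90.6% and 92.7%.

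Most counts of the members fell on protein-coding transcripts, with 94.3% to 95.3% of their counts per library. Transcripts annotated for nonsense-mediated decay held 2.43% to 2.99%, and retained-intron transcripts 1.36% to 2.02%. Among the core members with the lowest share on protein-coding transcripts were Rpl12 with 31.2%, Rpsa with 47.9%, and Rpl10a with 76.5% over all libraries. For Rpsa, a small-subunit protein also known as the laminin receptor precursor, 51.8% of counts were given to transcripts annotated for nonsense-mediated decay.

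Together, the members held about 1% of each library. Their share of gene counts was 0.978%, 1.16%, and 1.16% in controls 1 to 3, 1.08%, 1.07%, and 1.00% with Chd8 siRNA, and 1.18%, 1.18%, and 1.27% with Tsc2 siRNA. The 3 Tsc2 siRNA libraries were the highest of the 9, and control library 1 was the lowest. As a share of protein-coding counts instead, control library 2, at 1.5047%, lay above Tsc2 siRNA library 1, at 1.5028%, so that Tsc2 siRNA and control siRNA overlapped. The means were 1.10% ± 0.103 (SD, n = 3), 1.05% ± 0.0425, and 1.21% ± 0.0483. Tsc2 siRNA exceeded control siRNA by 0.113 percentage points and Chd8 siRNA by 0.159 percentage points, both with p = 0.1 for the share of all gene counts in a two-sided exact permutation test, the smallest value that this design allows. Chd8 siRNA and control siRNA differed by −0.0462 percentage points (exact permutation p = 0.6, two-sided). In bulk RNA of this kind, fewer cells of a type and less RNA per cell cannot be told apart. Without control library 1 the difference between Tsc2 siRNA and control siRNA was 0.0536 percentage points, and that between Chd8 siRNA and control siRNA ranged from −0.106 to −0.0160 over single libraries left out. The summed microglial markers were also higher in all 3 Tsc2 siRNA libraries, at 4634 to 5042 CPM, than in the 3 controls, at 3972 to 4618 CPM, and ranged from 4197 to 5166 CPM in Chd8 siRNA. Their part in the shift of the members was not tested. The ratio of large-subunit to small-subunit counts varied little, from 1.45 to 1.54 over the 9 libraries.

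**Figure D2:**
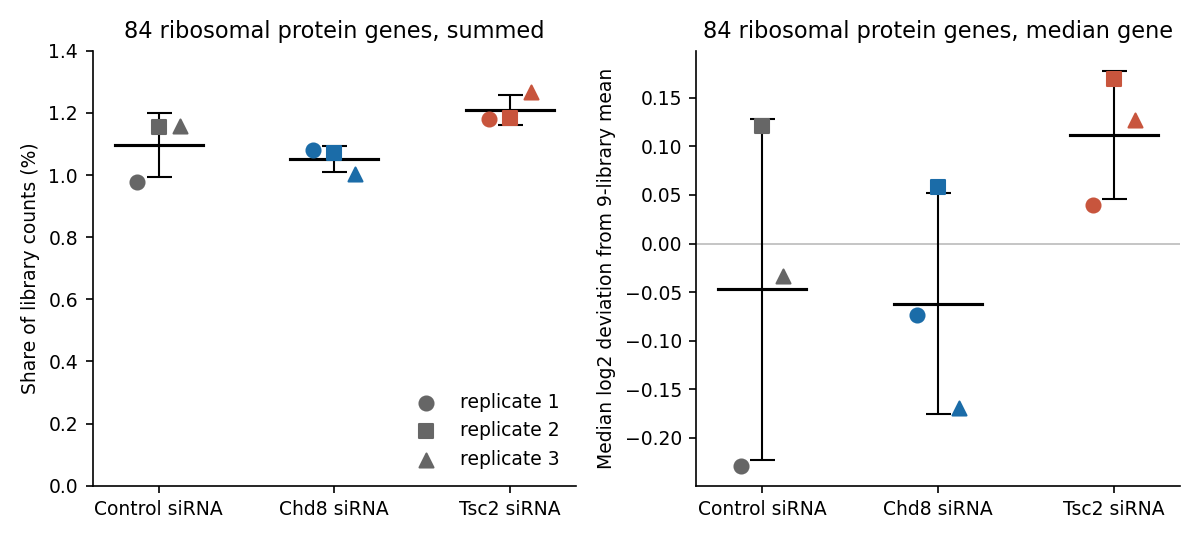
Left, the share of library counts in the 84 genes (y axis, %) by siRNA; right, the median over the 84 genes of the log2 CPM deviation from the mean of the 9 libraries. Points are libraries, with the shape giving the replicate number, lines are group means, and bars are SD (n = 3). The 3 Tsc2 siRNA libraries sit at 1.18% to 1.27% on the left and from 0.04 to 0.17 on the right, and control library 1 is lowest in both, at 0.978% and −0.23.

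The median deviation of the members from the mean of the 9 libraries, on the log2 CPM scale, was −0.23, 0.12, and −0.03 in control siRNA, −0.07, 0.06, and −0.17 with Chd8 siRNA, and 0.04, 0.17, and 0.13 with Tsc2 siRNA. Of the 84 members, 6, 73, and 34 were above their 9-library mean in controls 1 to 3. With Chd8 siRNA 19, 50, and 9 were above it, and with Tsc2 siRNA 58, 78, and 75. Members thus leaned to one side in some libraries, whereas control library 3, Chd8 siRNA library 2, and Tsc2 siRNA library 1 were closer to an even split. For comparison, the median deviation of all genes tested stayed between −0.01 and 0.03. Over the replicate numbers, core members varied by a median of 0.21 on the log2 scale. The largest ranges between numbers were those of Rpl12 (0.50), Rps25 (0.48), Rpl31 (0.47), and Rps16 (0.45), and the smallest those of Rpl41 (0.03) and Rpl10 (0.07). Between the highest and the lowest library, core members differed by 1.19-fold to 2.23-fold, with a median of 1.43-fold.

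**Figure D3:**
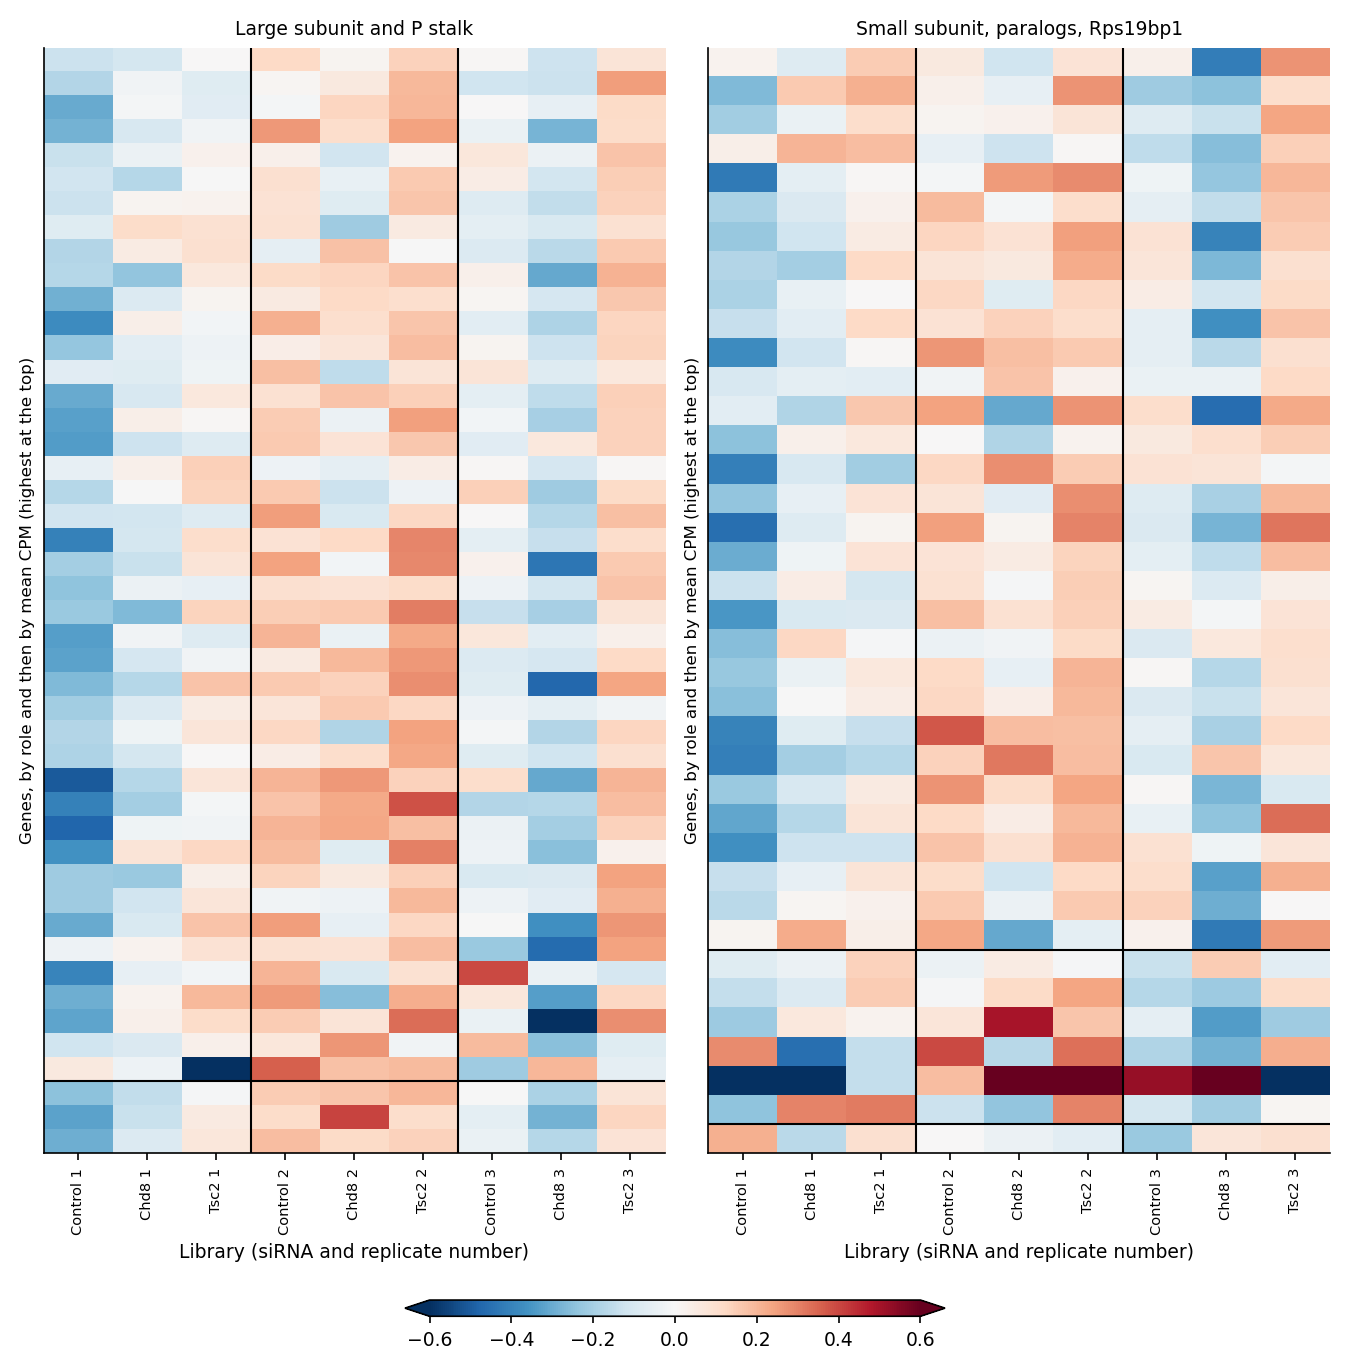
Level of each of the 84 members (rows without names, by role and then by mean CPM) in the 9 libraries (columns, ordered by replicate number), as log2(CPM + 0.5) minus the mean of the 9 libraries; red is higher and blue lower, and colors saturate at the ends of the scale. Control 1 and Chd8 3 are blue in most rows, with 6 and 9 members above the mean. Control 2, Tsc2 2, and Tsc2 3 are red in most, with 73, 78, and 75.

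The first comparison asks whether ribosomal protein mRNAs differed after siRNA against Tsc2, the brake on mTORC1. In Tsc2 siRNA against control siRNA, 78 of 84 members had a positive log2 fold change, compared with 47.6% of all genes tested, but the shift was small. The median log2 fold change of the members was 0.15, or 1.11-fold, against −0.02 for all genes tested. By role the median was 0.15 for 43 large-subunit genes, of which 39 were positive, 0.14 for 31 small-subunit genes, of which 30 were positive, and 0.13 for the 3 P stalk genes, all positive. For Rplp0, Rplp1, and Rplp2 the log2 fold changes were 0.12 ± 0.14, 0.18 ± 0.18, and 0.13 ± 0.14. No member was called by edgeR's quasi-likelihood test, where a call needed an adjusted p under 0.05 and at least a 1.5-fold difference, and no gene of all those tested was called either (0%). DESeq2 and limma-voom called 0 members too, against 0.0369% and 0% of all genes with an adjusted p. At an unadjusted p under 0.05, 1 member passed, against 2.61% of all genes. With the replicate number as a block, 0 members were called, against 0.387% of all genes, and 21 members, all higher, had an unadjusted p under 0.05, against 10.7%. Groups did not overlap, with every Tsc2 siRNA library higher, for 15 members (background 3.87% of all genes), and for 0 members with every Tsc2 siRNA library lower (background 4.23%). Scaled by total counts only, 25 members did not overlap, against 8.01% of all genes in either direction. Within replicate numbers the median difference was 0.26, 0.05, and 0.16 for numbers 1 to 3, and 53 members were higher at all 3 numbers, against 15.5% of all genes tested. Without control library 1 the median was 0.06, with 63 of 84 members positive, and without control library 2 it was 0.23.

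The core member with the lowest p was Rps24. It was at 253, 311, and 262 CPM in controls 1 to 3 and at 352, 366, and 327 in Tsc2 siRNA. All 3 Tsc2 siRNA libraries were above all 3 controls, and Chd8 siRNA spanned both groups at 339, 294, and 256 CPM. The log2 fold change was 0.34 ± 0.14 (SE; edgeR, adjusted p = 1.00), and 0.34 ± 0.089 with the block (edgeR, adjusted p = 0.115). Rpl30, a small large-subunit protein, was at 51.7, 59.2, and 58.7 CPM in control siRNA and at 63.2, 68.7, and 69.8 in Tsc2 siRNA, again without overlap and with a log2 fold change of 0.25 ± 0.11. Rps20, a small-subunit protein, was at 102.8, 127.9, and 115 CPM against 128.5, 147, and 139, where the lowest Tsc2 siRNA library lay just above the highest control and the log2 fold change was 0.26 ± 0.12. Rps6, the small-subunit protein that S6 kinases phosphorylate downstream of mTORC1, was at 206, 241, and 226 CPM against 256, 251, and 280.1. Its groups did not overlap either, and its log2 fold change was 0.23 ± 0.11 (edgeR, adjusted p = 1.00; with the block, 0.278). The other members without overlap included Rpl7a, Rpl13a, Rpl17, Rpl36al, Rpl37, Rps23, Rps29, and Rpsa. Rpl39l did not overlap either, at 5, 4, and 6 counts in controls 1 to 3 and 12, 10, and 11 in Tsc2 siRNA. It met the limit of 10 counts in 3 libraries only because of the Tsc2 siRNA libraries. Its place among the 15 members without overlap and the 78 positive ones was thus favored by the filter and carries no weight.

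The 4 core members with a negative log2 fold change and the lowest p in this comparison were Rpl12 (−0.25 ± 0.29), Rpl36a (−0.11 ± 0.19), Rpl5 (−0.07 ± 0.16), and Rpl3 (−0.03 ± 0.11). With the block Rpl12 was at −0.27 ± 0.25. Rpl12 and Rpl5 are among the 4 members whose joint counts lay mostly in pseudogenes. With pseudogene counts added to their members, an alternative chosen after seeing the data, the log2 fold change became 0.16 for Rpl12, 0.11 for Rpl5, and 0.0187 for Rpl36a, and 83 of 84 members were positive.

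**Figure D4:**
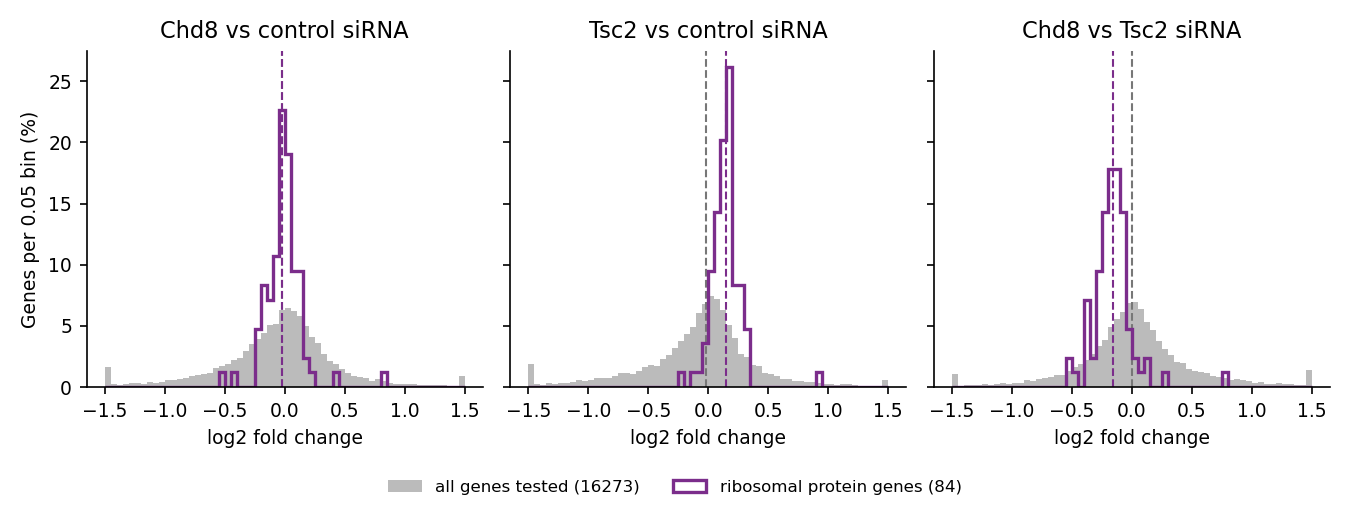
Distribution of log2 fold changes (x axis, bins of 0.05, with values beyond 1.5 in either direction placed in the end bins) as a percentage of genes (y axis) for all 16273 genes tested (gray) and the 84 members (purple) in the 3 comparisons. Dashed lines are medians; for the members they stand at −0.02, 0.15, and −0.16, and for all genes tested at −0.02, −0.02, and 0.00.

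The second comparison asks the same of Chd8. In Chd8 siRNA against control siRNA the members split, with 37 positive and 47 negative log2 fold changes, compared with 52.2% negative among all genes tested. The median was −0.02 for the members and −0.02 for all genes tested. No member was called by edgeR's quasi-likelihood test (background 0%), by DESeq2 (background 0.0576%, with an adjusted p for 83 of the 84 members), or by limma-voom (background 0%), and none with the block (background 0.535%). At an unadjusted p under 0.05, 1 member passed (background 3.82%), and 5 with the block (background 12.8%). Groups did not overlap for 3 members that were lower, Rpl3, Rps4x, and Rpsa (background 4.92%), and for 1 that was higher, Rps29 (background 4.17%). As shares of the 84 members, both counts were below those over all genes. Members thus separated no more often than genes in general. Within replicate numbers the median difference was 0.18, −0.08, and −0.13, so number 1 had the opposite sign to numbers 2 and 3. Leaving out 1 library moved the median from −0.10 without control library 1 to 0.08 without control library 2.

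Rps4x, an X-linked small-subunit gene, had the lowest p. It was at 119.9, 148, and 135 CPM in controls 1 to 3, at 111, 101, and 91.4 with Chd8 siRNA, and at 140.4, 151, and 147 with Tsc2 siRNA. All Chd8 siRNA libraries were below all 6 others, with library 1 closest to the controls. The log2 fold change against control siRNA was −0.41 ± 0.12 (edgeR, adjusted p = 1.00), and −0.41 ± 0.094 with the block (edgeR, adjusted p = 0.0535). Rpsa was at 392, 402, and 394 CPM in control siRNA and at 366, 356, and 289 in Chd8 siRNA, without overlap, and its log2 fold change was −0.23 ± 0.12 (edgeR, adjusted p = 1.00). Rpl3, a large-subunit protein close to the catalytic center, was at 176, 210, and 195 CPM against 176, 166, and 176. The highest Chd8 siRNA library of Rpl3, at 175.7 CPM, was just below the lowest control, at 176.5 CPM. Rps29, a zinc-binding small-subunit protein, went the other way, at 79.8, 92.9, and 89.8 CPM against 104, 94.1, and 99.8, with a log2 fold change of 0.18 ± 0.11. Rps25, Rpl13a, and Rpl19 overlapped between the groups, with log2 fold changes of 0.21 ± 0.18, 0.13 ± 0.12, and 0.12 ± 0.13.

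The paralogs and like genes ranged from −0.52 to 0.82 in log2 fold change in Chd8 siRNA against control siRNA. In Tsc2 siRNA against control siRNA they ranged from −0.04 to 0.93. Rpl22l1, the paralog of the large-subunit gene Rpl22, was at 9.24, 10.04, and 6.56 CPM in control siRNA, at 5.36, 6.63, and 6.09 with Chd8 siRNA, and at 6.74, 9.58, and 8.81 with Tsc2 siRNA. Control library 3 lay within the Chd8 siRNA range, whereas Tsc2 siRNA lay above Chd8 siRNA in every library. The log2 fold change of Rpl22l1 in Chd8 siRNA was −0.52 ± 0.24 against control siRNA and −0.48 ± 0.24 against Tsc2 siRNA (edgeR, adjusted p = 1.00 for both). Rpl36al, the autosomal copy of Rpl36a, was at 26.8, 29.5, and 26.3 CPM in control siRNA and at 32.99, 35.0, and 32.1 in Tsc2 siRNA, without overlap, with a log2 fold change of 0.28 ± 0.14. For Rpl7l1 and Rps27l the log2 fold changes against control siRNA were 0.14 ± 0.12 and 0.18 ± 0.24 with Chd8 siRNA. With Tsc2 siRNA they were 0.11 ± 0.12 and 0.06 ± 0.24. Rpl39l stayed at or below 0.51 CPM, and Rps27rt, a retrotransposed copy of Rps27, ranged from 0 to 2.34 CPM over the 9 libraries, so their fold changes rest on few counts. Rps19bp1 differed from control siRNA by −0.05 ± 0.17 in Chd8 siRNA and 0.04 ± 0.17 in Tsc2 siRNA on the log2 scale.

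The third comparison sets the knockdowns against each other, and uses the same Chd8 and Tsc2 siRNA libraries as the comparisons above, which themselves share the control libraries. In Chd8 siRNA against Tsc2 siRNA, 77 of 84 members had a negative log2 fold change, compared with 49.4% of all genes tested, with a median of −0.16, or 0.895-fold, against 0.00 for all genes tested. No member was called by edgeR's quasi-likelihood test (background 0%), by DESeq2 (background 0.0307%), or by limma-voom (background 0%), and none with the block (background 0.221%). At an unadjusted p under 0.05, 6 members passed, all lower in Chd8 siRNA (background 3.1%), and 33, all lower, with the block (background 10.7%). Groups did not overlap, with Chd8 siRNA lower, for 26 members (background 4.42%), of which 12 were large-subunit genes, 13 small-subunit genes, and 1 was Rpl22l1. Scaled by total counts only, 43 members did not overlap, against 8.39% of all genes in either direction. The median difference was −0.10, −0.13, and −0.29 for numbers 1 to 3, and 52 members were lower at all 3 numbers, against 15.9% of all genes tested. Leaving out 1 library kept the median between −0.22 and −0.12. The median was −0.22 without Chd8 siRNA library 2 and −0.12 without Chd8 siRNA library 3.

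Rps4x again had the lowest p, with a log2 fold change of −0.53 ± 0.12 (edgeR, adjusted p = 1.00). With the block it was −0.53 ± 0.093 (edgeR, adjusted p = 0.0233), under 0.05 but short of a 1.5-fold difference, and no other member had an adjusted p under 0.05 in the blocked fit of any of the 3 comparisons. Of all genes, 0.375% were under 0.05 in this comparison and fit. Without Chd8 siRNA library 1 and with the block, Rps4x passed both limits, at −0.66 (edgeR, adjusted p = 0.00711), as did 0.471% of all genes. It also passed both without replicate 1 of every group and with the block, where 0.83% of all genes did. Rpsa was at 366, 356, and 289 CPM in Chd8 siRNA and at 430, 409, and 466 in Tsc2 siRNA, without overlap. Its log2 fold change was −0.37 ± 0.12 (edgeR, adjusted p = 1.00; with the block, 0.1005). Rps20 and Rpl24, a small-subunit and a large-subunit protein, followed at −0.29 ± 0.12 and −0.36 ± 0.15, both without overlap. Rpl24 was at 97.2, 105, and 78.8 CPM in Chd8 siRNA and at 113, 131, and 119 in Tsc2 siRNA. Core members with positive values included Rps25 (0.07 ± 0.18), Rpl5 (0.01 ± 0.16), and Rpl12 (0.28 ± 0.29), and Rpl12 was at 0.32 ± 0.25 with the block.

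**Figure D5:**
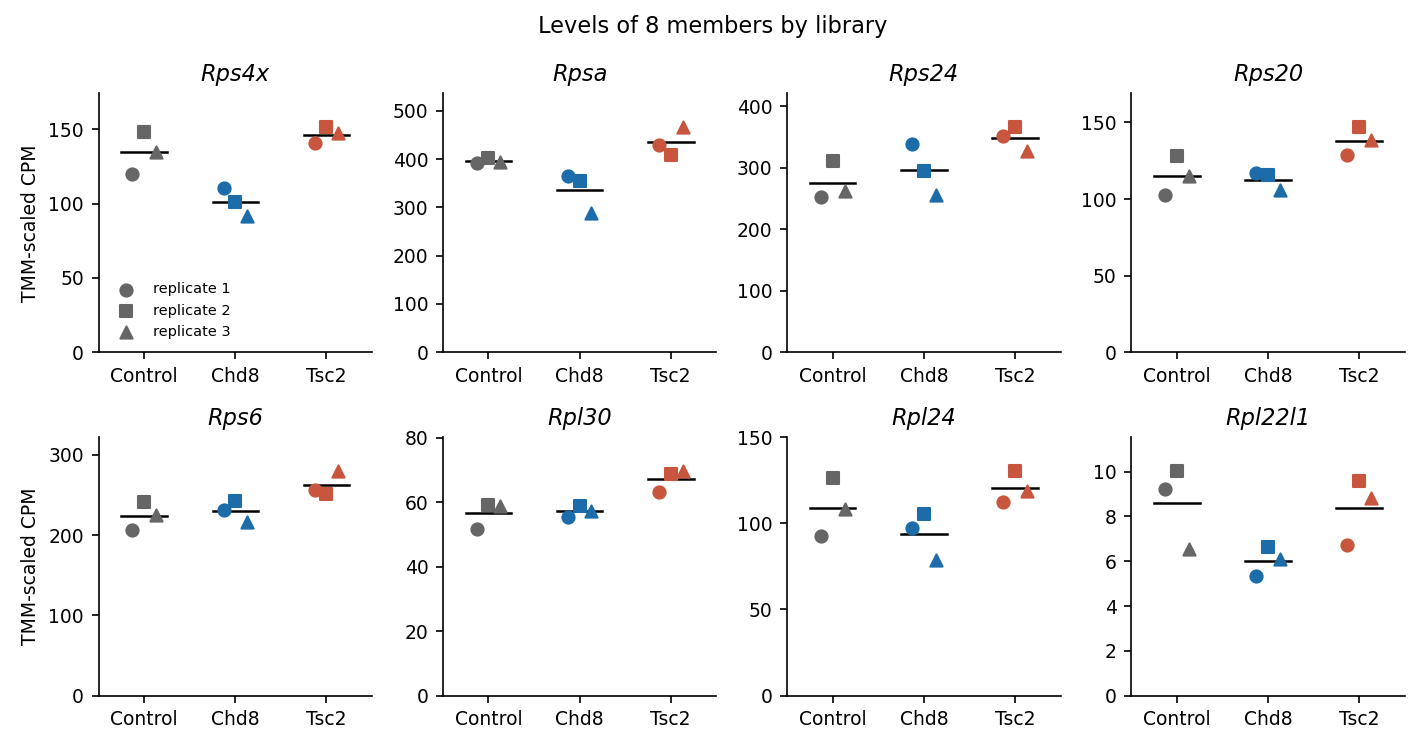
Level of 8 members (y axis, TMM-scaled CPM from 0) by siRNA, with 1 point per library, the shape giving the replicate number, and the line the group mean (n = 3). Rps4x and Rpsa are lower in all 3 Chd8 siRNA libraries than in the other 6, at 91.4 to 111 and 289 to 366 CPM, and Rps24, Rps20, Rps6, and Rpl30 are higher in all 3 Tsc2 siRNA libraries than in the 3 controls.

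Genes around the ribosome were described by lists. Among ribosome components with other symbols were Rack1, a scaffold protein on the small subunit, and Fau, whose product holds a small-subunit protein fused to a ubiquitin-like one. In Tsc2 siRNA against control siRNA their log2 fold changes were 0.11 ± 0.12 and 0.26 ± 0.12, and neither was called. Fau was at 171, 197, and 175 CPM in control siRNA and at 219, 227, and 206 in Tsc2 siRNA, without overlap. With Chd8 siRNA it was at 222, 225, and 183 CPM, which overlapped control siRNA. Its log2 fold change in Chd8 siRNA was 0.21 ± 0.12 against control siRNA and −0.05 ± 0.12 against Tsc2 siRNA. Among 15 other TOP mRNAs, mostly translation factors, 11 were positive in Tsc2 siRNA, with a median of 0.04 against 0.15 for the members, and 12 were lower in Chd8 siRNA than in Tsc2 siRNA, with a median of −0.16. Of these, Gas5, a noncoding TOP RNA that hosts small nucleolar RNAs, was at 11.7, 10.5, and 12.2 CPM in control siRNA, at 9.81, 5.74, and 6.66 with Chd8 siRNA, and at 11.7, 11.5, and 12.4 with Tsc2 siRNA. All its Chd8 siRNA libraries were below all others, and its log2 fold change against control siRNA was −0.63 ± 0.22 (edgeR, adjusted p = 1.00). Hnrnpa1, which encodes an RNA-binding protein, was −0.30 ± 0.13 against control siRNA and −0.43 ± 0.13 against Tsc2 siRNA. The translation genes Eef1d and Eif3e were at 0.27 ± 0.15 and 0.22 ± 0.13 in Tsc2 siRNA against control siRNA.

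Among 16 regulators of mTORC1 and TOP mRNAs, Tsc2 included, 9 were positive and 7 negative in Tsc2 siRNA, and 6 positive and 10 negative in Chd8 siRNA, against control siRNA. Deptor, which inhibits mTOR, differed from control siRNA by −0.72 ± 0.30 in Chd8 siRNA and −0.52 ± 0.30 in Tsc2 siRNA. Rptor, which encodes the mTORC1 subunit raptor, was −0.31 ± 0.12 in Chd8 siRNA against Tsc2 siRNA. Among 31 ribosome biogenesis genes, the median was 0.02 in Chd8 siRNA and 0.05 in Tsc2 siRNA against control siRNA. Taf1b, a subunit of the RNA polymerase I selectivity factor, was at 7.50, 7.88, and 6.99 CPM in control siRNA, at 5.16, 3.25, and 3.62 with Chd8 siRNA, and at 8.11, 7.77, and 7.64 with Tsc2 siRNA. Its Chd8 siRNA libraries were below all others, with a log2 fold change of −0.89 ± 0.23 against control siRNA (edgeR, adjusted p = 1.00; with the block, 0.0679). Nol6 was at 0.49 ± 0.19 and Eif6 at 0.16 ± 0.11 in Tsc2 siRNA against control siRNA, and Nob1 at −0.51 ± 0.31 in Chd8 siRNA against control siRNA. Nop56, a component of box C/D small nucleolar ribonucleoproteins, was at −0.52 ± 0.19 in Chd8 siRNA against Tsc2 siRNA.

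The 78 mitochondrial ribosomal protein genes, which serve the separate ribosome of mitochondria, had medians of 0.08 in both Chd8 and Tsc2 siRNA against control siRNA, with 48 and 51 positive. In Chd8 siRNA against Tsc2 siRNA their median was −0.03, with 43 of 78 negative, where the cytoplasmic members had −0.16 with 77 of 84 negative. Mrpl44 was higher than in every control library in all 6 knockdown libraries, with log2 fold changes of 0.94 ± 0.33 and 0.89 ± 0.33, and Mrpl3 was at 0.38 ± 0.12 in Tsc2 siRNA. Mrpl13 was at 0.44 ± 0.16 in Chd8 siRNA against control siRNA, and Mrpl50 at −0.93 ± 0.35 in Chd8 siRNA against Tsc2 siRNA. No gene of these 5 lists was called by edgeR's quasi-likelihood test in any comparison, and the differences between the lists and the members were not tested.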

How the data were processed

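RNA-seq of 9 libraries was quantified by the authors with salmon 0.14.1 on mm10 and imported with tximport, and estimated counts per transcript were deposited, 1 column per library and not normalized. Which annotation release they used is not given in the sources used here. Of 140948 transcripts, 139852 were matched to GENCODE mouse release 21 (GRCm38) and summed to 54119 genes; the 1096 unmatched transcripts held 0.27% of counts and were left out. Sums were rounded to whole numbers.

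Genes were tested with edgeR 4.0.16 (R 4.3.3), filterByExpr, TMM factors, and the quasi-likelihood test, fitted to all 9 libraries by siRNA alone. Adjusted p-values are Benjamini-Hochberg values over 16273 genes, and a call needs a value under 0.05 and at least a 1.5-fold difference. TPM values were computed from the counts and transcript lengths. Pseudogenes were matched with blastn 2.17.0. The tests were tried on simulated data. The p-values measure the spread between these libraries, and total counts ranged from 16913448 to 33213801.

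The replicate numbers come from the sample titles. Deviations from group means correlated across genes at 0.24 to 0.52 for the 9 pairs of libraries with the same number and at −0.38 to 0.04 for the other 18, so the number was taken to pair libraries. The members and lists were chosen with earlier results of these data known. Genes were named by a rule: in each comparison, the 4 positive and 4 negative core members with the lowest p; the 4 highest and lowest by TPM; the 4 with the largest and the 2 with the smallest range between replicate numbers; the 4 with the lowest share on protein-coding transcripts; the P stalk, paralog, and other-symbol genes; and the 2 of each further list with the lowest p per comparison, and the targeted genes. Some genes that this rule names are not reported here. Members without overlap, Rps12, Rps23, Rpl27a, Rpl27, the pseudogenes, and the genes of printed start sites were named after their values were seen. Alternatives were DESeq2 1.42.0, limma-voom (limma 3.58.1), other scaling factors, count filters, feature sets, the replicate block, and each library left out.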

Additional observations from a re-analysis of the deposited data

How the results depend on the processing

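The count of members called stayed at 0 in Chd8 and in Tsc2 siRNA against control siRNA under all 34 alternatives each, including DESeq2 and limma-voom. In Chd8 against Tsc2 siRNA it was 1, Rps4x, with the replicate block and no fold change threshold (0.375% of all genes), and also without replicate 1 in all groups with the block (0.83%). It ranged from 0 to 1 over single libraries left out. With the replicate block the members at an unadjusted p under 0.05 went from 1 to 5 in Chd8 siRNA, from 1 to 21 in Tsc2 siRNA, and from 6 to 33 between the knockdowns; it changed no other call of a member. Scaling by total counts only moved the members without overlap from 15 to 25 in Tsc2 siRNA and from 26 to 43 between the knockdowns, against 8.01% and 8.39% of all genes; the cause was not tested.

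Without single libraries or replicate numbers, the median log2 fold change ranged from −0.10 to 0.08 in Chd8 siRNA, from 0.06 to 0.23 in Tsc2 siRNA, and from −0.22 to −0.12 between the knockdowns. The sign for Chd8 siRNA thus depended on the libraries used. Over single libraries left out, the difference in share ranged from −0.106 to −0.0160, from 0.0536 to 0.143, and from −0.174 to −0.131 percentage points.

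Of 288 values for 24 named member results, 275 kept direction and call, and 13 changed sign. With pseudogene counts added, chosen after seeing the data, these were Rpl12 (0.16), Rpl36a (0.0187), and Rpl5 (0.11) in Tsc2 siRNA, and Rpl12 (−0.15) and Rpl5 (−0.12) between the knockdowns. The other 8 came from leaving out a library. In Tsc2 siRNA, Rpl3 ranged from −0.0873 to 0.0370 over the libraries left out and was positive without control library 2 or Tsc2 siRNA library 1, while Rpl36a (−0.312 to 0.0615) and Rpl5 (−0.152 to 0.00443) were positive without control library 3. Between the knockdowns, Rps25 (−0.0429 to 0.206) was negative without Chd8 siRNA library 2 or Tsc2 siRNA library 1, and Rpl5 (−0.148 to 0.117) without Chd8 siRNA library 2 or Tsc2 siRNA library 3. The median SE of a member's log2 fold change in Tsc2 siRNA was 0.14 without and 0.0903 with the block, beside median shifts of 0.15 in both fits, which limits what 3 libraries a group can show for single members.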
